A study of Mus musculus with 191 samples.

Results

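The glutathione S-transferases described here are 10 genes measured in mouse lung: Gsta3 and Gsta4 of the alpha class, Gstm1 and Gstm2 of the mu class, Gsto1 of the omega class, Gstt1 and Gstt3 of the theta class, the mitochondrial Gstk1, and the microsomal Mgst1 and Mgst2. They were chosen by name, with earlier results of these data known. Their probe sets are those whose annotation names only that gene, and 16 probe sets met this. The 10 are among 18194 genes that the array represents by a probe set of a single symbol, and all 10 passed the filter on low values that left 13524 genes for testing.

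RNA of the right lung lobe came from B6C3F1 hybrid females, a common stock for carcinogenicity tests, which were 5 weeks old at the start and 18 weeks old after 13 weeks of exposure. The series concerns the prediction of lung tumours by chemicals. It holds 133 arrays of exposed mice in 34 groups, for 26 chemicals, and 58 arrays of vehicle controls in 14 sets, with 3 to 5 mice a group, which limits the precision. Each array is 1 animal, and the arrays fall into 4 batches by the codes in their titles.

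Glutathione S-transferases join the thiol of the tripeptide glutathione to electrophiles, among them epoxides, quinones and unsaturated aldehydes, and the conjugates are then exported from the cell. In lung they are known from the bronchiolar epithelium, where club cells also hold the cytochrome P450 enzymes that make such electrophiles from inhaled or ingested compounds. Many of the genes are known targets of the transcription factor NRF2, which acts through antioxidant response elements. For some small halogenated compounds the conjugation is known to activate the compound rather than to detoxify it.

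The groups in which a member rose or fell were as follows. Given by gavage in corn oil on 5 days a week were 2,3-benzofuran at 240 mg/kg (code BFUR), 1,2,3-trichloropropane at 60 mg/kg (TCPN), 1,2-dibromoethane at 62 mg/kg (DBET), coumarin at 200 mg/kg (COUM) and 1,4-dichlorobenzene at 600 mg/kg (DCBZ). Given in rodent chow on 7 days a week was 1,5-naphthalenediamine at 2000 ppm (NAPD). Inhaled on 5 days a week were naphthalene at 10, 20 and 30 ppm (NPTH) and vanadium pentoxide at 2 mg per cubic metre (VANP). The corresponding controls received corn oil alone (set CornOil for BFUR, CCO2 and CCO3 for COUM and DBET, CCO5 and CCO6 for DCBZ and TCPN), plain chow (set RodentChow for NAPD) or clean air (sets ACO3, ACO4 and ACO5). Used for trends, the comparison of related compounds and counts were naphthalene at 0.5 and 3 ppm and methylene chloride (MECL) at 100, 500, 2000, 3000 and 4000 ppm, both inhaled, and in chow N-(1-naphthyl)ethylenediamine dihydrochloride (NEDD) at 2000 ppm, 1-amino-2,4-dibromoanthraquinone (ABDQ) at 20000 ppm, malathion at 14800 ppm and 2,2-bis(bromomethyl)-1,3-propanediol at 1250 ppm. The other groups enter the totals: iodoform at 93, trichlorofluoromethane at 3925 and benzene at 100 mg/kg in corn oil, 2-chloromethylpyridine hydrochloride at 250 and N-methylolacrylamide at 50 mg/kg by gavage in distilled water, tris(2,3-dibromopropyl)phosphate at 1000, diazinon at 200, 4-nitroanthranilic acid at 10000 and pentachloronitrobenzene at 8187 ppm in chow, and ethylene oxide at 100, propylene glycol mono-t-butyl ether at 1200, tetrafluoroethylene at 1250 and Tetrafluororethane, as the labels spell it, at 50000 ppm by inhalation. Their controls were the water set WCO1, the chow sets FCO1 and FCO2, the corn oil set CCO4 and the air set ACO1, beside those above. No label names the chemical that a control set was run beside, so every set of the same vehicle and batch was used. Groups that share a set share its deviations. The set ACO3 has its dose in mg per cubic metre, as only vanadium pentoxide has, whereas ACO4 and ACO5 are in ppm. Neither this unit nor the animal numbers in the titles were used to match sets.

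Values are the deposited ones on a log scale whose base is not stated; base 2 is assumed throughout, and every fold rests on that. A difference is the mean of an exposed group minus that of its control sets, each set weighted equally, given with its standard error (SE) from limma. The adjusted p is limma's, with Benjamini-Hochberg adjustment over the 13524 genes of a comparison, and is the largest over the control sets. Below, a gene rose or fell where this value was below 0.05 and the sign was shared by all sets. The p-values were not adjusted over the 34 groups. As a check of the tissue, the club cell secretoglobin Scgb1a1, the type 2 cell surfactant gene Sftpc and the type 1 cell gene Ager lay between the 99.9835th and 99.9945th percentile of genes by mean level. Genes of adjacent tissue varied between arrays, from -1.91 to 2.98 for the fat gene Adipoq and from -0.31 to 3.76 for the heart muscle gene Myh6.

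Upstream sequence is shown for 4 members, chosen because 3 of them hold the letters of a response element core and the fourth, Gsto1, rose in the most groups. Sequences are those of RefSeq on GRCm38.p6, up to 250 bases before the annotated start and outside the gene, 5' to 3' on the gene's strand, with matches in capitals. The searched letters were TGACNNNGC, the core of the antioxidant response element, and GCGTG, the core of the xenobiotic response element to which the aryl hydrocarbon receptor binds, each on both strands.
Gsta3 (chr1:21240335-21240564, + strand): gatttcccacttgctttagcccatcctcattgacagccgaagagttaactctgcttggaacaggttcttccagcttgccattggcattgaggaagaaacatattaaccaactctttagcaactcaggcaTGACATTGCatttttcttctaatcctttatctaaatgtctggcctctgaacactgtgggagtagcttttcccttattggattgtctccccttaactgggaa
Gstm1 (chr3:108017974-108018223, - strand): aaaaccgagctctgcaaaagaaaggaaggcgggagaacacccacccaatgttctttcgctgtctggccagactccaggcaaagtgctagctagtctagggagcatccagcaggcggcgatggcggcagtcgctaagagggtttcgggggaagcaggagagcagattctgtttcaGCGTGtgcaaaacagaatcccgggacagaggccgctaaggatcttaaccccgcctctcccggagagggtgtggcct
Mgst1 (chr6:138140277-138140526, + strand): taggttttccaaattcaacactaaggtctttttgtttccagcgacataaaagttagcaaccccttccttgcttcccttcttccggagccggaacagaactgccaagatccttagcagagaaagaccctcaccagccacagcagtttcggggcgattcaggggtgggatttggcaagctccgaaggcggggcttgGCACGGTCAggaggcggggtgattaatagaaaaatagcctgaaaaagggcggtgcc
Gsto1 (chr19:47854723-47854972, + strand): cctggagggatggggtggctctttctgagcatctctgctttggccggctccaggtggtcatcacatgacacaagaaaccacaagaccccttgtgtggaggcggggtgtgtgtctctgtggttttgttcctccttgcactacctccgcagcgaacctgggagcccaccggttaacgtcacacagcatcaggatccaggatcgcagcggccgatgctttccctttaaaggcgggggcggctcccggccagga
In Gsta3 the match TGACATTGC lies on the gene's own strand, and in Mgst1 the match lies on the opposite strand and reads GCACGGTCA here. Gstm1 holds GCGTG, and Gsto1 holds neither motif in this window. Of 32851 promoter windows of 300 bases in RefSeq, 12.4% hold TGACNNNGC and 32.4% hold GCGTG. Windows were found for 9 of the 10 members, and Gsta4 had no entry. Gstk1, Gstm2, Gstt1, Gstt3 and Mgst2 held neither motif in their windows. The windows of Gstt1 and Mgst2 lie wholly inside the annotated gene, so the bases before its start were not searched. A match is a description of the letters only.

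A member rose in 32 of 340 tests of member by exposed group, which is 9.41% of them, and fell in 1, which is 0.294%. Over all genes and the same groups 1.86% of tests were called higher and 0.722% lower. The members were chosen with earlier results of these data known, so these shares are a description and no test. After quantile normalization of the arrays the counts were 52 higher and 12 lower, so that 81.2% of calls were rises against 97% here. Over all genes that normalization called 2.42% of tests higher and 2.08% lower. The rises fell in 9 groups, and in the other 24 groups with neither call no member passed the test. Each of the 33 calls had all its exposed arrays on that side of the control mean, and in 22 of them the exposed and control arrays did not overlap. Over all 340 tests there was no overlap in 38 higher and 9 lower. Of the 38, 10 came with 2,3-benzofuran and 9 with 1,5-naphthalenediamine, both compared as 3 against 3 arrays, where arrays separate most readily. The calls were selected by the test, which favours both traits, and the share over all genes was not counted. These counts of no overlap therefore have no background and say nothing particular to the members. RNA was taken from whole lobes, so more cells of a type and more RNA per cell cannot be told apart in any of these results.

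**Figure D1:**
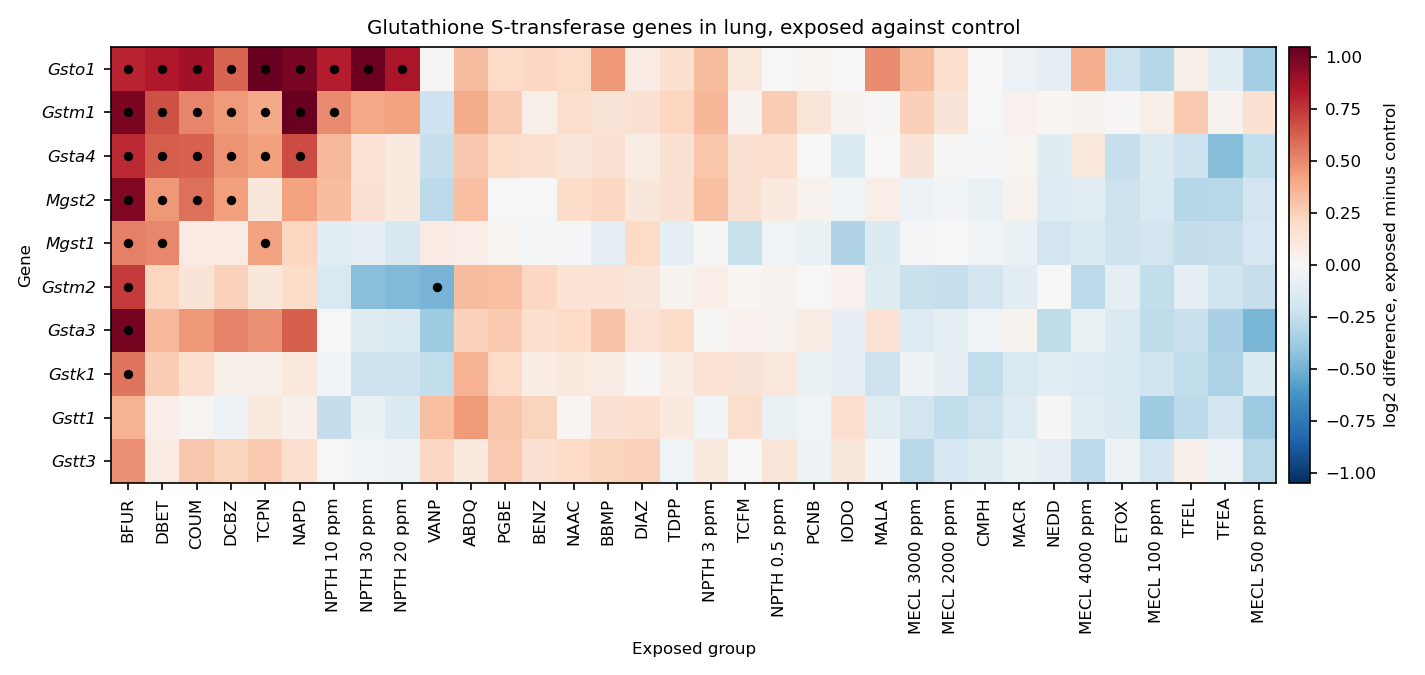
Log2 difference of each of the 10 members (vertical axis) in each of the 34 exposed groups (horizontal axis, by title code and, for series, concentration), from blue for lower to red for higher than controls; a dot marks a gene that passed the test. The dots lie in 10 groups, with 9 in the Gsto1 line, 7 in the Gstm1 line and none in the lines of Gstt1 and Gstt3.

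The members did not rise in equal numbers of groups. Gsto1 rose in 9 groups, Gstm1 in 7, Gsta4 in 6, Mgst2 in 4 and Mgst1 in 3. Gsta3, Gstm2 and Gstk1 rose in 1 group each, while Gstt1 and Gstt3 rose in 0 by limma's adjusted p. At an unadjusted p under 0.05 against every set, Gstt1 was higher in 1 group and lower in 1, and Gstt3 higher in 3. Counts differed between chemicals as well, but not on equal terms. A call had to pass against every control set, and these were fewest for 2,3-benzofuran and 1,5-naphthalenediamine and most for naphthalene and vanadium pentoxide. Against pooled controls all 33 calls passed and 14 were added. 2,3-Benzofuran raised 8 of 10 members (1.66% of all genes rose), 1,2-dibromoethane 5 (2.31%), coumarin 4 (4.06%), 1,4-dichlorobenzene 4 (1.05%), 1,2,3-trichloropropane 4 (7.73%) and 1,5-naphthalenediamine 3 (1.04%). Of the 8 calls with 2,3-benzofuran, those of Gsta3, Gsta4, Gstm2, Gsto1, Gstk1 and Mgst1 were lost without the single array BFUR replicate 1. None of the 8 passed when that comparison was fitted on its own arrays. Naphthalene raised 2 at 10 ppm (0.421%), 1 at 20 ppm (1.12%) and 1 at 30 ppm (1.58%). The single fall came with vanadium pentoxide, where 1.31% of all genes fell. The median difference of the 10 members was 0.76 with 2,3-benzofuran, against 0.04 over all genes tested. It was 0.40 with 1,2-dibromoethane, 0.37 with coumarin, 0.34 with 1,4-dichlorobenzene, 0.34 with 1,2,3-trichloropropane and 0.32 with 1,5-naphthalenediamine, where the medians over all genes lay between -0.06 and 0.07. Between control arrays the members' SD was 0.19 to 0.28, above the 0.159 of the median gene.

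Gsto1 encodes the omega class enzyme, known for reducing glutathione adducts and methylated arsenicals rather than for conjugation. With 1,2,3-trichloropropane its values were 4.49, 4.79, 4.45 and 4.63, whereas the 10 corn oil arrays ran from 2.98 through a median of 3.64 to 3.91. Every exposed array lay above every control, and the difference of 1.04 ± 0.14 (SE; 4 against 10 arrays, adjusted p = 4.53e-06) is about 2.06-fold. With 1,5-naphthalenediamine the values were 4.45, 4.38 and 4.37 against 3.21, 3.72 and 3.27 in chow controls. These groups did not overlap either, and the difference was 1.00 ± 0.20 (3 against 3, adjusted p = 0.000244). With naphthalene at 30 ppm the arrays stood at 4.17, 5.05, 4.66 and 4.78, and the 14 air controls ran from 3.28 through 3.63 to 4.20. The array at 4.17 lay inside the control range, and the difference was 1.03 ± 0.14 (adjusted p = 2.32e-06). At 20 ppm the difference was 0.86 ± 0.14 (adjusted p = 0.000224) and at 10 ppm 0.83 ± 0.14 (adjusted p = 0.000961), with no overlap at either.

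The same gene rose with coumarin (3.73 to 4.54 against 2.81 to 3.78 in controls; 0.88 ± 0.15, adjusted p = 0.00122) and with 1,2-dibromoethane (3.82 to 4.45 against the same controls; 0.84 ± 0.15, adjusted p = 0.00273). The 4 arrays of 1,2-dibromoethane lay above all 8 controls, whereas 1 of coumarin lay within their range. It rose by 0.80 ± 0.20 with 2,3-benzofuran (adjusted p = 0.0114) and by 0.61 ± 0.14 with 1,4-dichlorobenzene (adjusted p = 0.0194). In 7 of these 9 groups the Gsto1 call held with each array of the comparison left out in turn. In 2,3-benzofuran it was lost without BFUR replicate 1, CornOil replicate 2 or CornOil replicate 3 (0.57 to 0.73, adjusted p 0.0711 to 0.795). In 1,4-dichlorobenzene it was lost without DCBZ replicate 1 or 3, CCO5 replicate 1 or CCO6 replicate 1 or 2, where the difference was 0.54 to 0.59 and the adjusted p 0.0562 to 0.0863. The second probe set of Gsto1 was called in 3 of the 9 groups and had the same sign in all 9.

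**Figure D2:**
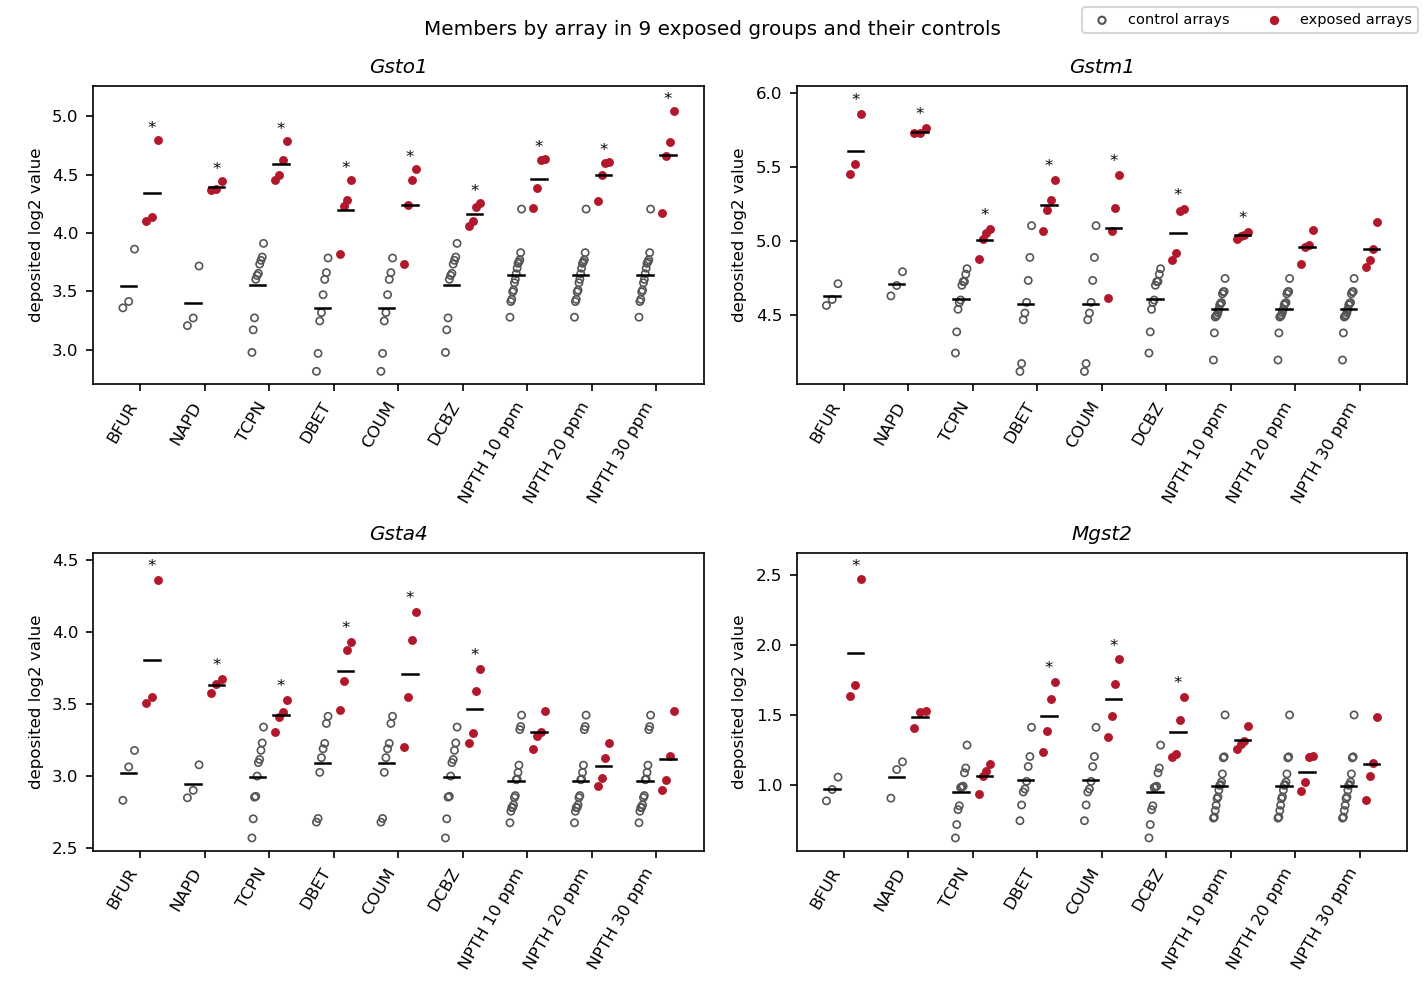
Deposited log2 value (vertical axis) of Gsto1, Gstm1, Gsta4 and Mgst2 on each array of the 9 groups with a rise (filled) and of their controls (open), with horizontal lines at the exposed mean and at the control mean (each set weighted equally) and an asterisk where the gene passed the test. Gsto1 with 1,2,3-trichloropropane sits between 4.45 and 4.79, above every control array, and Mgst2 passed in 4 of the 9 groups.

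Gstm1 is an abundant mu class enzyme that conjugates epoxides and other electrophiles. With 1,5-naphthalenediamine it stood at 5.73, 5.76 and 5.73, against 4.70, 4.79 and 4.63 in chow controls. The exposed arrays lay close together and above all controls, with a difference of 1.03 ± 0.14 (adjusted p = 1.71e-09). With 2,3-benzofuran the values were 5.86, 5.45 and 5.52 against 4.71, 4.56 and 4.60. Again there was no overlap (0.99 ± 0.14, adjusted p = 6.66e-08). 1,2-Dibromoethane raised it by 0.67 ± 0.10 (adjusted p = 5.14e-05) and coumarin by 0.52 ± 0.10 (adjusted p = 0.00225), where 1 or more arrays lay within the control range of 4.12 to 5.10. Leaving out any single array of these comparisons kept the 4 calls.

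The remaining Gstm1 rises were smaller and lost the call more readily. With 1,4-dichlorobenzene the difference was 0.44 ± 0.10 (adjusted p = 0.0208), lost without DCBZ replicate 3 or 4 or CCO5 replicate 1 (0.39 to 0.41, adjusted p 0.0717 to 0.119). With 1,2,3-trichloropropane it was 0.40 ± 0.10 (adjusted p = 0.0182), lost without TCPN replicate 1 or 2 or CCO5 replicate 1 or 5 (0.36 to 0.39, adjusted p 0.0536 to 0.0785), and 0.24 after quantile normalization. In both, all exposed arrays lay above all controls. With naphthalene at 10 ppm the arrays read 5.04, 5.03, 5.06 and 5.01, above the 14 air controls, which ran from 4.20 through 4.55 to 4.75. That rise of 0.50 ± 0.09 (adjusted p = 0.0307) was lost without any of the 4 exposed arrays, ACO3 replicate 2 or 4 or ACO5 replicate 1, 3, 4 or 5 (0.49 to 0.51, adjusted p 0.0544 to 0.11), and when its probe sets were averaged (0.34, adjusted p = 0.158). At the other concentrations the differences were 0.26 at 0.5 ppm, 0.35 at 3 ppm, 0.42 at 20 ppm and 0.40 at 30 ppm, with adjusted p of 0.0613 at 20 ppm and 0.114 at 30 ppm. At each of these concentrations all 4 exposed arrays lay above all 14 air controls, though none passed the test. After quantile normalization Gstm1 passed at 3 ppm (0.34, adjusted p = 0.0361), 20 ppm (0.53, adjusted p = 1.54e-06) and 30 ppm (0.39, adjusted p = 0.00188).

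In all 4 probe sets name only Gstm1, and the one used here belongs to a class that can share sequence with related genes. The others were called higher in 8, 7 and 5 groups, of which 7, 6 and 5 were among the 7 groups above. All 3 had the same sign as the used set in each of these 7 groups.

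Gstm2, the other mu class member, showed both directions. With 2,3-benzofuran it stood at 5.08, 4.32 and 4.35 against 3.93, 3.86 and 3.76 in corn oil controls. The difference of 0.73 ± 0.17 (adjusted p = 0.00578) rested on BFUR replicate 1, without which it was 0.49 (adjusted p = 0.797). With vanadium pentoxide the 4 arrays read 3.27, 3.27, 3.46 and 3.29, all below the 14 air controls, which ran from 3.51 through 3.78 to 4.16. It fell by 0.48 ± 0.12 on the log2 scale (adjusted p = 0.0325). The call was lost without VANP replicate 1, 2 or 4, ACO3 replicate 1, 2 or 3 or ACO4 replicate 3 or 4 (-0.49 to -0.45, adjusted p 0.0557 to 0.165), and without arrays of an RNA integrity number under 7 (adjusted p = 0.0714). In the same comparison 5 of 9 type 2 cell markers and 4 of 9 macrophage markers rose and none fell. The mean level of the type 2 list was 5.56 to 5.76 against 4.82 to 5.29 in controls, that of the macrophage list 2.12 to 2.26 against 1.62 to 2.15, and the RNA integrity number 9.3 to 9.6 against 6.1 to 9.5. The part of these in the result was not tested. With naphthalene at 20 and 30 ppm Gstm2 differed by -0.46 and -0.44 (adjusted p 0.0552 and 0.0824). After quantile normalization both were called lower (-0.34 and -0.38, adjusted p 0.00255 and 0.000231), and Gstm2 was called higher with coumarin (0.26, adjusted p = 0.016) and 1,4-dichlorobenzene (0.28, adjusted p = 0.0193).

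The alpha class members differed from each other in how many groups raised them. Gsta4, whose enzyme is known for conjugating 4-hydroxynonenal, an aldehyde from oxidised lipids, read 3.67, 3.64 and 3.57 with 1,5-naphthalenediamine against 2.85, 3.08 and 2.90. The groups did not overlap, and the difference was 0.69 ± 0.16 (adjusted p = 0.00663), lost without RodentChow replicate 1 (0.64, adjusted p = 0.0799). With 2,3-benzofuran it read 4.36, 3.51 and 3.55 against 3.18, 2.83 and 3.06, a difference of 0.78 ± 0.16 (adjusted p = 0.00159). This call was lost without BFUR replicate 1 (0.50, adjusted p = 0.648) or CornOil replicate 2 (0.69, adjusted p = 0.0506). With 1,2-dibromoethane the arrays ran from 3.45 to 3.93, above all 8 controls at 2.68 to 3.41 (0.64 ± 0.12, adjusted p = 0.0114; lost without CCO2 replicate 1, 0.61, adjusted p = 0.0559). With coumarin they ran from 3.20 to 4.14 and overlapped the controls (0.62 ± 0.12, adjusted p = 0.0129; lost without COUM replicate 1, 0.47, adjusted p = 0.0656).

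The Gsta4 rises in the other pair of corn oil groups were near the threshold. With 1,4-dichlorobenzene the difference was 0.47 ± 0.12 (adjusted p = 0.0378), lost without DCBZ replicate 3 or 4, CCO5 replicate 1 or 2 or CCO6 replicate 1, 2 or 4 (0.38 to 0.47, adjusted p 0.0657 to 0.219). With 1,2,3-trichloropropane it was 0.43 ± 0.12 (adjusted p = 0.0276), lost without TCPN replicate 1, 2 or 3, CCO5 replicate 1 or 2 or CCO6 replicate 1, 2 or 4 (0.37 to 0.43, adjusted p 0.0529 to 0.108), and at 0.22 (adjusted p = 0.202) after quantile normalization. In both groups exposed and control arrays overlapped. Gsta3, an alpha class gene best known for conjugating aflatoxin epoxide in mouse liver, passed with 2,3-benzofuran (4.31, 3.74 and 4.10 against 3.13, 3.17 and 2.83). Its difference there was 1.01 ± 0.20 (adjusted p = 0.000807), and without BFUR replicate 1 it was 0.88 (adjusted p = 0.0897). With 1,5-naphthalenediamine Gsta3 stood at 3.90, 3.67 and 3.79 against 3.13, 3.26 and 3.09, with no overlap, and the difference of 0.63 did not pass (adjusted p = 0.138). After quantile normalization it passed (0.60, adjusted p = 0.00226), as it did when only the arrays of that comparison were fitted. Gsta3 also passed after quantile normalization with coumarin (0.61, adjusted p = 0.000435), where its second probe set passed as well (0.45, adjusted p = 0.0208), and with 1,4-dichlorobenzene (0.54, adjusted p = 0.0248), and it was called lower with vanadium pentoxide (-0.37, adjusted p = 0.0402).

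The theta class genes Gstt1 and Gstt3, whose enzymes are known for activating dihalomethanes and dihaloethanes, passed the test in no exposed group. The Gstt1 differences ran from -0.38 with methylene chloride at 500 ppm to 0.45 with 1-amino-2,4-dibromoanthraquinone (adjusted p = 0.146), and those of Gstt3 from -0.29 to 0.48 with 2,3-benzofuran (adjusted p = 0.0586). With 1,2-dibromoethane, a dihaloethane, Gstt1 read 3.30, 3.27, 3.57 and 3.09, inside the control range of 2.63 to 3.85. After quantile normalization Gstt3 was called with 2,3-benzofuran (0.39, adjusted p = 0.0379) and coumarin (0.45, adjusted p = 0.00105), and Gstt1 was called higher with 1-amino-2,4-dibromoanthraquinone (0.33, adjusted p = 0.0484) and lower with tetrafluoroethylene (-0.34, adjusted p = 0.0248). Gstk1, the mitochondrial and peroxisomal kappa class enzyme, passed with 2,3-benzofuran, at 3.76, 2.91 and 2.93 against 2.71, 2.63 and 2.56. That difference of 0.57 ± 0.17 (adjusted p = 0.0486) was lost without BFUR replicate 1 or any CornOil array (0.28 to 0.60, adjusted p of at least 0.0896), and without the filter on low genes (adjusted p = 0.0617). After quantile normalization Gstk1 was called higher also with 1-amino-2,4-dibromoanthraquinone (0.30, adjusted p = 0.0414) and coumarin (0.33, adjusted p = 0.0248), and lower with Tetrafluororethane (-0.37, adjusted p = 0.0101) and tetrafluoroethylene (-0.36, adjusted p = 0.0045).

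The microsomal members are membrane proteins of a separate family, and Mgst2 also makes leukotriene C4. Mgst2 read 2.47, 1.64 and 1.72 with 2,3-benzofuran against 1.06, 0.89 and 0.97, a difference of 0.97 ± 0.15 (adjusted p = 1.09e-06). With coumarin it ran from 1.34 to 1.90 against 0.75 to 1.41 (0.58 ± 0.11, adjusted p = 0.00313). Both calls held with each array left out. The rise with 1,2-dibromoethane (0.46 ± 0.11, adjusted p = 0.0414) was lost when CCO3 replicate 3 or 4 or DBET replicate 2, 3 or 4 was left out (0.37 to 0.49, with an adjusted p of 0.0549 to 0.254), and after quantile normalization (0.38, adjusted p = 0.0818). The rise with 1,4-dichlorobenzene (0.43 ± 0.11, adjusted p = 0.0268) was lost without DCBZ replicate 3 or 4, CCO5 replicate 1 or 2 or CCO6 replicate 1 or 2 (0.35 to 0.42, adjusted p 0.0507 to 0.184).

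Mgst1, an abundant microsomal enzyme that also reduces lipid peroxides, rose with 2,3-benzofuran, 1,2-dibromoethane and 1,2,3-trichloropropane. In 1,2-dibromoethane the arrays read 5.67, 5.79, 5.66 and 5.65, above all 8 controls at 4.77 to 5.57. The difference was 0.50 ± 0.11 (adjusted p = 0.0239), lost when CCO3 replicate 4, CCO2 replicate 2 or DBET replicate 2 was left out (0.44 to 0.48, with an adjusted p of 0.0504 to 0.102). In 2,3-benzofuran it was 0.53 ± 0.15 (adjusted p = 0.0306), lost without BFUR replicate 1 or CornOil replicate 2 or 3 (0.35 to 0.50, adjusted p of at least 0.115). In 1,2,3-trichloropropane it was 0.42 ± 0.11 (adjusted p = 0.0231), lost without TCPN replicate 1, 2 or 3 or CCO6 replicate 1 or 4 (0.38 to 0.43, adjusted p 0.0539 to 0.124) and when both probe sets were averaged (0.13, adjusted p = 0.199). Quantile normalization brought the 3 differences to 0.23, 0.28 and 0.26. Mgst1 was then also called higher with coumarin (0.17, adjusted p = 0.0381) and 1,5-naphthalenediamine (0.23, adjusted p = 0.0361), and lower with iodoform (-0.27, adjusted p = 0.00173), malathion (-0.18, adjusted p = 0.0436) and trichlorofluoromethane (-0.20, adjusted p = 0.0179). The other calls that this normalization added were Gsto1 higher with malathion (0.48), Gstm1 higher (0.36) and Mgst2 lower (-0.39) with tetrafluoroethylene, and Gsta4 lower with Tetrafluororethane (-0.47). The second Mgst1 probe set lay above the median of all values on 0 arrays, so that its values give no check.

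Single arrays moved all members together. BFUR replicate 1 was the highest of its group in 10 of 10 members, with an array SD of 1.36 against 1.23 and 1.26 for the other 2. Its mean over 12 club cell markers was 4.32 against 3.72 and 3.59, and over 12 ciliated cell markers 2.16 against 1.60 and 1.57. COUM replicate 4 was the lowest of its group in 10 of 10, with an array SD of 1.01 against up to 1.28, and CCO5 replicate 1 and CCO6 replicate 1 were each the lowest of their sets in 10 of 10. CCO3 replicates 3 and 4 held all the lowest values of that set, with array SDs of 1.08 and 1.09 against 1.30 and 1.39. The part of the array SD in the results was not tested. When each comparison was fitted on its own arrays, 9 of the 33 calls passed, namely Gsto1 in 1,2,3-trichloropropane, 1,5-naphthalenediamine and naphthalene at 10, 20 and 30 ppm, Gstm1 in 1,5-naphthalenediamine and naphthalene at 10 ppm, Gsta4 in 1,5-naphthalenediamine and Gstm2 in vanadium pentoxide.

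Markers of other cell types and the RNA integrity number moved with some of these groups. In 1,2-dibromoethane 7 of 12 club cell markers rose and 0 fell, and the mean of the list was 4.11 to 4.54 against 3.22 to 3.74 in controls. Ciliated cell markers rose in 4 of 12 there (1.55 to 1.93 against 1.07 to 1.36), in 3 of 12 with 2,3-benzofuran (1.57 to 2.16 against 1.19 to 1.47) and in 3 of 12 with 1,2,3-trichloropropane (1.58 to 1.84 against 1.09 to 1.62). With coumarin, 1,4-dichlorobenzene and naphthalene at 10, 20 and 30 ppm 1 of 12 ciliated cell markers rose in each. The median difference of the ciliated list was 0.11 with coumarin and 0.38 with 1,4-dichlorobenzene. It was 0.35, 0.28 and 0.35 with naphthalene from 10 to 30 ppm, beside 0.35 with 1,2,3-trichloropropane. With naphthalene 6 of 12 club cell markers fell at 20 ppm and 5 fell at 30 ppm with 1 rise. With coumarin 4 of 9 fibroblast and smooth muscle markers fell (1.67 to 2.41 against 2.16 to 2.73), as did 3 of 8 endothelial markers (2.45 to 2.95 against 2.87 to 3.59). Of the 12 club cell markers, Scgb1a1 and Pon1 fell there and 0 rose. The club list as a whole did not fall, with a median difference of 0.19 (mean of the list 3.35 to 4.10 against 3.22 to 3.74). With 1,5-naphthalenediamine 0 markers of the club or ciliated list passed the test, and the club cell list was at 3.44 to 3.53 against 3.39 to 3.75. RNA integrity was 9.4 to 9.6 with 1,2,3-trichloropropane against 6.7 to 8.8 in its controls. The part of these markers and of RNA integrity in the members' results was not tested.

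1,5-Naphthalenediamine and N-(1-naphthyl)ethylenediamine dihydrochloride both carry amines on a naphthalene ring and were both given in chow at 2000 ppm in the same batch. The former has both amino groups on the ring, whereas the latter carries a single nitrogen there with an aminoethyl chain. Gstm1 read 4.74, 4.66 and 4.79 with NEDD, near the chow values, against 5.73 to 5.76 with 1,5-naphthalenediamine. The difference between the compounds was 1.01 (95% interval 0.74 to 1.28, adjusted p = 3.91e-09). Gsto1 read 3.18, 3.35 and 3.39 with NEDD, and differed by 1.09 (0.70 to 1.48, adjusted p = 3.09e-05). Gsta3 differed by 0.90 (0.50 to 1.30, adjusted p = 0.00224), Gsta4 by 0.82 (0.49 to 1.14, adjusted p = 0.000324) and Mgst2 by 0.56 (0.27 to 0.85, adjusted p = 0.0187). These are 5 of 10 members higher with 1,5-naphthalenediamine, where 1.43% of all genes were, and 0 lower, against 0.104%. Against chow controls NEDD itself raised 0 members (0.0887% of all genes rose), also at an unadjusted p under 0.05. With NEDD 2 of 10 members lay above 0, and the median was -0.10 against -0.005 over all genes. Gsta3 was at -0.27 and Mgst2 at -0.13 with NEDD, and neither passed with 1,5-naphthalenediamine against chow (0.63 and 0.43). Their differences between the compounds thus include lower values with NEDD. Between the compounds the Gsta3, Gsta4, Gstm1 and Gsto1 calls held with each array of either group left out. That of Mgst2 was lost without NAPD replicate 1 or 3 or NEDD replicate 1, 2 or 3 (0.54 to 0.58, adjusted p 0.057 to 0.114).

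For the other 5 members the difference between the compounds did not pass. The intervals were -0.14 to 0.53 for Gstm2, -0.32 to 0.41 for Gstt1, -0.02 to 0.55 for Gstt3, -0.11 to 0.55 for Gstk1 and 0.13 to 0.71 for Mgst1 (adjusted p = 0.165). Differences as large as 0.41 for Gstt1 and 0.71 for Mgst1 lie within these intervals. Mgst1 passed after quantile normalization (0.33, adjusted p = 0.000143). It also passed when only the arrays of both groups were fitted (0.42, adjusted p = 0.0364). This was the only pair of related compounds at a matched dose, and the p-values are adjusted over all genes tested.

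**Figure D3:**
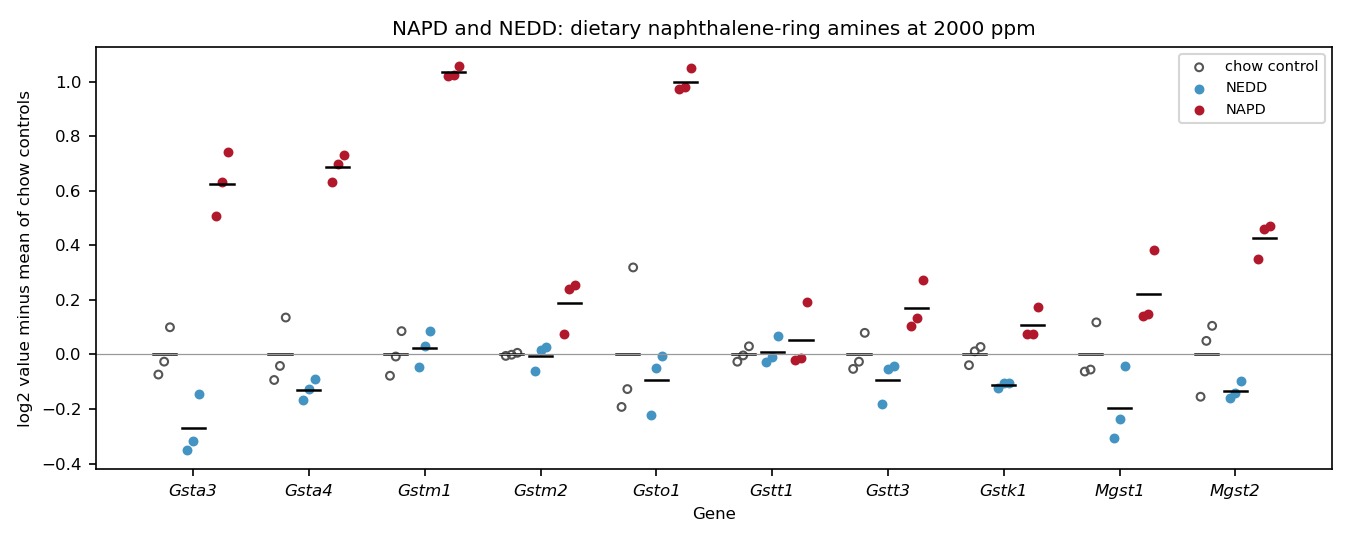
Log2 value minus the mean of the 3 chow controls (vertical axis) for each of the 10 members (horizontal axis) on the 3 chow arrays (open), the 3 arrays of N-(1-naphthyl)ethylenediamine dihydrochloride (NEDD, blue) and the 3 of 1,5-naphthalenediamine (NAPD, red), with lines at group means. In Gsta3, Gsta4, Gstm1, Gsto1 and Mgst2 the red points lie above all blue ones by a difference in means of 0.56 to 1.09.

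Naphthalene and methylene chloride were inhaled at 5 concentrations each, and a linear trend over the exposed arrays asked whether a member changed with concentration. Over naphthalene from 0.5 to 30 ppm Gsto1 rose by 0.91 ± 0.15 (20 arrays, adjusted p = 0.000108), with group means of 3.63, 3.97, 4.47, 4.49 and 4.67. Gstm2 fell by 0.57 ± 0.08 (adjusted p = 2.67e-05), from 3.85 at 0.5 ppm to 3.34 at 20 ppm and 3.37 at 30 ppm. Gstk1 fell by 0.39 ± 0.08 (adjusted p = 0.000476). So 1 of 10 members rose and 2 fell, where 9.08% of all genes rose and 31.7% fell, and the shares of members are near those of the background. All 3 trends kept their call with each replicate number left out. Over the same range 8 of 12 club cell markers fell and 2 rose, 8 of 9 type 2 cell markers rose, 5 of 8 endothelial markers fell, and of 9 fibroblast and smooth muscle markers 4 fell and 1 rose. The part of these in the members' trends was not tested.

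Gstm1 did not follow the linear trend (0.10 ± 0.06, adjusted p = 0.206). Its means were 4.81, 4.89, 5.04, 4.96 and 4.95 from the lowest to the highest concentration, all above the air mean of 4.54. With concentration on a log10 scale it passed (0.17, adjusted p = 0.0223), as it did with the air controls added at 0 ppm (0.39, adjusted p = 0.00105).

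Over methylene chloride from 100 to 4000 ppm Gsto1 rose by 0.79 ± 0.10 (21 arrays, adjusted p = 2.35e-05), with group means of 3.34, 3.28, 3.82, 3.97 and 4.02. The lowest concentrations lay below the air mean of 3.64 and the highest above it, and against air controls no methylene chloride group passed limma's adjusted test for any member, where 0% to 0.303% of all genes did. At an unadjusted p under 0.05, 1 member test was higher and 3 were lower, and after quantile normalization Gstm1 was called higher at 100 ppm (0.28, adjusted p = 0.0289), 500 ppm (0.37, adjusted p = 0.00999) and 3000 ppm (0.33, adjusted p = 0.019). Over the same concentrations the ciliated list had 5 rises and 1 fall among 12 genes, and 3 of 9 fibroblast and smooth muscle markers fell. RNA integrity was 7.3 to 8.9 on 4 arrays at 100 ppm, 9.4 on the 1 array with a value at 500 ppm and 9.1 to 9.5 at 2000 to 4000 ppm, and the part of these in the trends was not tested. Gsta4 rose by 0.35 ± 0.08 (adjusted p = 0.00163), Gsta3 by 0.30 ± 0.11 (adjusted p = 0.0281) and Gstt1 by 0.27 ± 0.07 (adjusted p = 0.00474). These 4 of 10 stand beside 27.2% of all genes that rose and 15.1% that fell. With the air controls added at 0 ppm Gsto1 alone kept its call, Gsta4 was at 0.19 (adjusted p = 0.24), Gsta3 at 0.015 (adjusted p = 0.97) and Gstt1 turned to -0.055 (adjusted p = 0.85). Gsta3 lost its call on log10 concentration (0.24, adjusted p = 0.105) and after quantile normalization (0.14, adjusted p = 0.262), where Gstt1 lost it too (0.11, adjusted p = 0.0518). The Gsta3 call was also lost without replicate 2, 4 or 5 of the exposed groups (0.26 to 0.30, adjusted p 0.0516 to 0.142) and that of Gstt1 without replicate 2 or 4 (0.21 to 0.22, adjusted p 0.0608 to 0.0621).

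**Figure D4:**
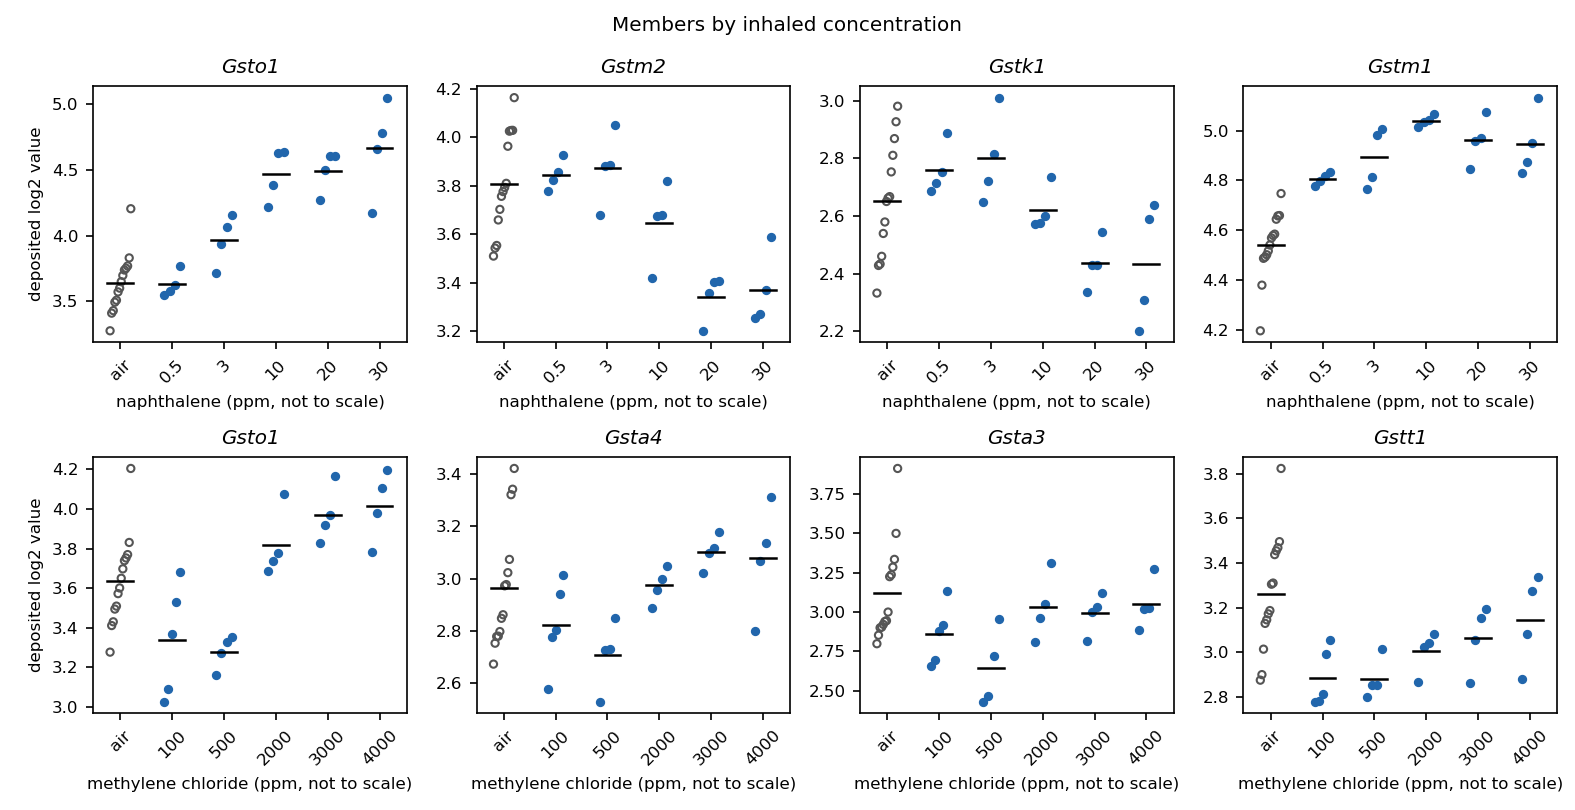
Deposited log2 value (vertical axis) of members on each array by inhaled concentration (horizontal axis in ppm, evenly spaced), for naphthalene in the upper panels and methylene chloride in the lower ones, with the 14 air controls of the batch (open) at the left and lines at the means. Gsto1 means go from 3.63 to 4.67 over naphthalene, and over methylene chloride the 2 lowest concentrations lie below the air mean of 3.64.

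Outside the 10, a list of 19 further glutathione S-transferase genes and relatives had 14 that were tested. Relatives among the 14 include the prostaglandin E synthase gene Ptges and Gstcd, so the counts are not of transferases alone. With 2,3-benzofuran 8 of 14 rose and 0 fell, led by Gsta2 (1.01 ± 0.18), the pi class Gstp1 (0.86 ± 0.15), Gstz1 of tyrosine breakdown (0.67 ± 0.15) and Gstt2 (0.52 ± 0.13). With 1,5-naphthalenediamine 4 rose, namely Gsta2 (1.52 ± 0.18), Gstp1 (0.85 ± 0.15), Gstm3 (0.51 ± 0.13) and Gstp3 (0.39 ± 0.10). With 1,4-dichlorobenzene 2 rose, with 1,2,3-trichloropropane 1, with coumarin 2 and with 1,2-dibromoethane 0. Over the naphthalene concentrations 7 of the 14 rose, among them Gstp1 by 0.38 and Ptges by 0.35. The 2 that fell were Gsta2 by 0.89 and Gstcd by 0.10. The genes Gsta2 and Gstp1 and their near copies share sequence, so that signal between such copies is uncertain.

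Glutathione supply and turnover was described by 17 tested genes. They include Txnrd1, whose enzyme reduces thioredoxin rather than glutathione and which counts in the NRF2 list as well. With 1,5-naphthalenediamine 6 of 17 rose and 0 fell, led by thioredoxin reductase Txnrd1 (1.39 ± 0.15), the catalytic subunit of glutamate-cysteine ligase Gclc (1.39 ± 0.21), its modifier Gclm (1.25 ± 0.11) and glutathione reductase Gsr (0.95 ± 0.14). With 2,3-benzofuran 1 rose, glutathione synthetase Gss (0.42 ± 0.12), beside 8 members. Of those 8 members only Gstm1 and Mgst2 kept the call without BFUR replicate 1. Of 19 tested NRF2 targets, which share Gclc, Gclm and Txnrd1 with that list and Nqo1, Abcc1 and Abcc4 with those that follow, 15 rose with 1,5-naphthalenediamine, 8 each with 2,3-benzofuran, 1,2-dibromoethane and 1,4-dichlorobenzene, 5 with coumarin and 4 with 1,2,3-trichloropropane. With naphthalene 4 rose at 10 ppm, 6 at 20 ppm and 7 at 30 ppm. In groups with 0 members called, 9 of 19 rose with 2,2-bis(bromomethyl)-1,3-propanediol (10.4% of all genes rose), 5 with malathion (0.991%) and 2 with 1-amino-2,4-dibromoanthraquinone (0.643%). The median differences of the NRF2 list were 0.77 with 1,5-naphthalenediamine and 0.42 with 2,3-benzofuran, against 0.00 and 0.04 over all genes. Of 7 tested genes for export and processing of conjugates 3 rose with 1,5-naphthalenediamine, the transporters Abcc4 (0.52 ± 0.10), Abcc1 (0.47 ± 0.12) and Abcc5 (0.45 ± 0.11). Of 7 tested aryl hydrocarbon receptor targets 4 rose there, led by Cyp1a1 (4.39 ± 0.28), and with NEDD Cyp1a1 alone rose (1.94 ± 0.28) while no member did. Cyp1a1 rose about as much with 1-amino-2,4-dibromoanthraquinone (4.30 ± 0.24), where 3 of the 7 rose. It also rose with pentachloronitrobenzene (2.23 ± 0.28), 4-nitroanthranilic acid (1.37 ± 0.24) and iodoform (0.60 ± 0.24). No member was called in these 4 groups before quantile normalization.

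With 1-amino-2,4-dibromoanthraquinone all 10 members were above 0, with a median of 0.32 against 0.00 over all genes, and 0 passed limma's adjusted test, against 5 higher at an unadjusted p under 0.05. Gstm1 was at 0.39 (adjusted p = 0.0742), and 2 of its other probe sets passed (0.46 and 0.36, adjusted p 0.039 and 0.0304). After quantile normalization Gstm1 (adjusted p = 0.00622), Gstm2 (0.0335), Gstk1 (0.0414) and Gstt1 (0.0484) passed, which is 4 of 10 where 3.97% of all genes did.

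The genes whose differences over the 34 groups were most like those of a member are given as a description, since groups share control sets and batches. For Gsto1 they were Cfap52, a gene of motile cilia (Pearson r = 0.919), and Cmbl (0.914). For Gsta3 they were Pir (0.915) and Gsta2 (0.876), and for Gsta4 Tspan1 (0.916) and Fgfbp1 (0.899). Gstm1 was nearest to the peroxisomal oxidase gene Acox2 (0.857) and the aldehyde dehydrogenase gene Aldh3a1 (0.846), and Gstm2 to the tight junction gene Cldn10 (0.885), which is a club cell marker, and 1810010H24Rik (0.848). Gstt1 was nearest to Tmem14c (0.941) and Romo1 (0.921), Gstt3 to Epdr1 (0.873) and Abhd14b (0.864), and Gstk1 to Gstm5 (0.88) and Pigf (0.872). Mgst1 was nearest to Aldh1a1 (0.828) and Idh1 (0.828), and Mgst2 to Gstz1 (0.882) and Gstm6 (0.877). Among the members themselves Gsta4 and Mgst2 were most alike (0.916) and Gstm1 and Gstt1 least (0.187).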

How the data were processed

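Lung RNA was kept in RNAlater, extracted with Trizol, purified with RNeasy and hybridised to Affymetrix mouse genome arrays, per the labels' protocols. The authors deposited 1 value per probe set and array, which are read here as log2 values; neither the base nor the normalization is given in the sources used here. Values of 45101 probe sets ran from -2.33 to 8.14, with array means near 0 and array SDs of 1.01 to 1.44, so the arrays were centred and not brought to 1 distribution.

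Annotation gave 1 symbol to 34958 probe sets, several to 932 and none to 9211. Where a gene had several, the brightest on average stood for it, and genes with fewer than 3 arrays above the overall median of -0.386 were dropped. All groups entered a single limma 3.58.1 model of group means in R 4.3.3. Trends used exposed arrays and linear concentration, and are log2 changes from the lowest to the highest. The labels give malathion at 14800 ppm in their dose field and another number in the titles. The members and gene lists were chosen with earlier results of these data known. All 10 members are named, and from each list up to 4 called genes of the largest change; likeness names 2 genes a member.

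Alternatives were quantile normalization within the batch, averaging a gene's probe sets, dropping the filter, fitting each comparison by itself, pooled controls, RNA integrity of at least 7, log10 concentration, controls at 0 ppm, replicate numbers left out of all exposed groups at once and each control array left out. Testing every other probe set of a member and leaving out single exposed arrays were chosen after seeing the data. On simulated data of 13524 genes the code called, of 100 genes shifted by 0.5 and 1, 70% and 99% in the NAPD layout, 61% and 98% in that of DBET, 68% and 98% in that of naphthalene at 30 ppm, 83% and 100% in the naphthalene trend, and 69% and 99% in NAPD against NEDD, with 0 to 9 false calls. The simulated noise was independent between genes and arrays. It held no shifts of whole arrays or control sets, which the real arrays show, so these figures check the code and not the error rates here.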

Additional observations from a re-analysis of the deposited data

Results flagged for a closer look

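Arrays far from the rest of their group were looked for in 51 sets of values, those of a called member in its exposed group and control sets, by Dixon's criterion, which chance meets in about 1 set in 20. There were 3. Gstm2 in VANP replicate 3 was at 3.46, with the other 3 arrays at 3.27 to 3.29, and this array was the highest of its group in 10 of 10 members. Gsto1 in CCO5 replicate 1 was at 2.98, with the other 4 at 3.60 to 3.79, and this array was the lowest of its set in 10 of 10 members. Mgst1 in DBET replicate 2 was at 5.79, with the other 3 at 5.65 to 5.67.

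Differences between the compounds of the matched pair passed limma's test of the difference itself for 5 members, each higher with 1,5-naphthalenediamine than with NEDD: Gsta3 by 0.90, Gsta4 by 0.82, Gstm1 by 1.01, Gsto1 by 1.09 and Mgst2 by 0.56.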

How the results depend on the processing

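Of the 33 calls 13 held with each array of the comparison left out and 20 were lost in at least 1 such refit. The 32 rises became 52 after quantile normalization and 11 when each comparison was fitted on its own arrays, and ran from 19 to 34 with arrays left out (19 without replicate 1 and 21 without replicate 3 of all exposed groups). The single fall became 12 after quantile normalization, 2 with the mean of all probe sets and 7 against pooled controls, and ran from 0 to 3 with arrays left out. The naphthalene trend gave 1 rise, and 2 with log10 concentration and with controls at 0 ppm, and its counts with replicates left out were 1 rise and 2 falls throughout. The methylene chloride trend gave 4 rises, 1 with controls at 0 ppm and 2 after quantile normalization, which added 1 fall, and 2 to 6 with replicates left out. NAPD against NEDD gave 5, and 3 to 5 with arrays left out (3 without replicate 1 or replicate 3 of both groups). Quantile normalization added Mgst1 to these, as did a fit on the arrays of both groups alone. Values that turned were the second Mgst1 probe set in BFUR (-0.031), TCPN (-0.17) and DBET (-0.058), and the Gstt1 methylene chloride trend with controls at 0 ppm (-0.055). Beyond the smaller number of arrays in some refits, the cause was not tested. Of the 33 calls, 31 passed after quantile normalization, 31 with the mean of all probe sets, 32 without the filter, 33 against pooled controls and 32 with RNA integrity of at least 7.

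No paired analysis was possible because the labels give no replicate numbers shared between groups. Quantile normalization moved the median of all genes by -0.12 in TCPN and in NAAC. Signal over background could not be judged, as detection calls were not used here. In the simulated layouts of exposed against control groups 61% to 70% of shifts of 0.5 were called, so some were missed even under that simpler noise. The rate at which real differences of that size are missed was not measured.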

Other observations

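The quinone reductase gene Nqo1, an NRF2 target, was higher in 8 of the 9 groups with a member rise, with 1,2-dibromoethane the exception (0.32, adjusted p of limma = 0.0797). It also rose in 3 groups with no member called before quantile normalization: 1-amino-2,4-dibromoanthraquinone (1.10), malathion (0.65) and 2,2-bis(bromomethyl)-1,3-propanediol (0.57). Of the other glutathione S-transferases in 1-amino-2,4-dibromoanthraquinone, Mgst3 (0.86) and Gstm6 (0.32) rose.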
